A study of Homo sapiens with 4 samples.

Results

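Collagens are trimers of alpha chains, each chain encoded by its own gene, and the chains of a trimer are wound together in the endoplasmic reticulum before they are secreted. Fibrillar collagens build the fibres of connective tissue, collagen IV builds the sheet of basement membranes, collagen VI forms beaded microfibrils, and other classes decorate fibrils, span the cell membrane or form fine networks. Epithelial cells are best known for making basement membrane collagens, and fibroblasts for making the fibrillar ones. The genes described here are the collagen chain genes, chosen as those with a probe set annotated to exactly 1 symbol of the form COL, number, A, number. Of 44 such genes in the RefSeq table, 42 were measured, out of 20904 genes with exactly 1 symbol. COL3A1 and COL17A1 were not analysed here. A floor of log2 3 on any array, set by the rule that chose the genes, separated 4 chains that reached it from 38 that did not.

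RNA came from MCF10A, a non-tumorigenic human breast epithelial line, grown without treatment in SFIHE medium. The groups were cells stably transfected with Her2 together with the H1047R variant of PIK3CA (labelled Her2+PIK3CA-H1047R), with Her2 alone, with the PIK3CA variant alone (PIK3CA-H1047R), or with LacZ, a bacterial enzyme gene, as the control. Her2 is the product of ERBB2, a receptor tyrosine kinase, and PIK3CA encodes the catalytic chain of the lipid kinase PI3K, which such receptors activate. Each group was measured on 1 array, so no value has a replicate error, no test compares 2 groups, and the number of arrays limits the precision. Whether a transfected line was 1 clone or a pool, and which promoter drove the introduced genes, the labels do not say. Values are deposited log2 expression values per probe set, so a difference of 1 is 2-fold. Because probe sets differ in how they bind, a higher value of 1 gene than of another does not show more transcript.

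The arrays had medians of 1.13 to 1.17 over all 53617 probe sets, and 77.8% to 79.0% of probe sets lay under log2 3 on each array. A value under the floor does not show that a transcript was absent, since the abundant transcripts GAPDH (3.47 to 3.67) and ACTB (2.55 to 3.72) also read low in these values. The probe set annotated to ERBB2 and MIR4728 went against the labels. It read 7.39 on the Her2+PIK3CA-H1047R-labelled array, 4.29 on the Her2-labelled array, 8.48 on the PIK3CA-H1047R-labelled array and 5.96 on the LacZ array. Every direction below is therefore that of the array labelled with a group. The basal epithelial markers KRT5, ITGB4 and ITGA6 lay above the floor on all 4 arrays, while KRT14 did so on the Her2+PIK3CA-H1047R-labelled array alone (3.43, against 1.47 to 2.24 on the other arrays), and TP63 and KRT17 were not analysed here. The epithelial adhesion gene CDH1 read 5.07 on the Her2+PIK3CA-H1047R-labelled array and 8.94 to 9.34 on the others. Among the other epithelial markers, EPCAM read 5.71 on that array and 7.01 to 7.94 on the others. KRT8 did not follow this order, with 2.41 with both labels, 3.65 with Her2, 3.21 with PIK3CA-H1047R and 2.40 with LacZ. KRT18 lay under the floor on all 4 arrays (2.41 to 2.79).

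The 4 chains that reached the floor were COL12A1, COL8A1, COL6A1 and COL4A5, 1 from each of 4 collagen classes. That is 9.52% of the 42 measured chains, against 39.9% of the 20904 genes. Just inside the floor lay COL4A5 and COL6A1, whose highest values were 3.31 and 3.39. Just outside it lay COL4A2 at 2.96, COL23A1 at 2.91 and COL4A6 at 2.65. The floor was part of the choice, so these values are a description.

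**Figure D1:**
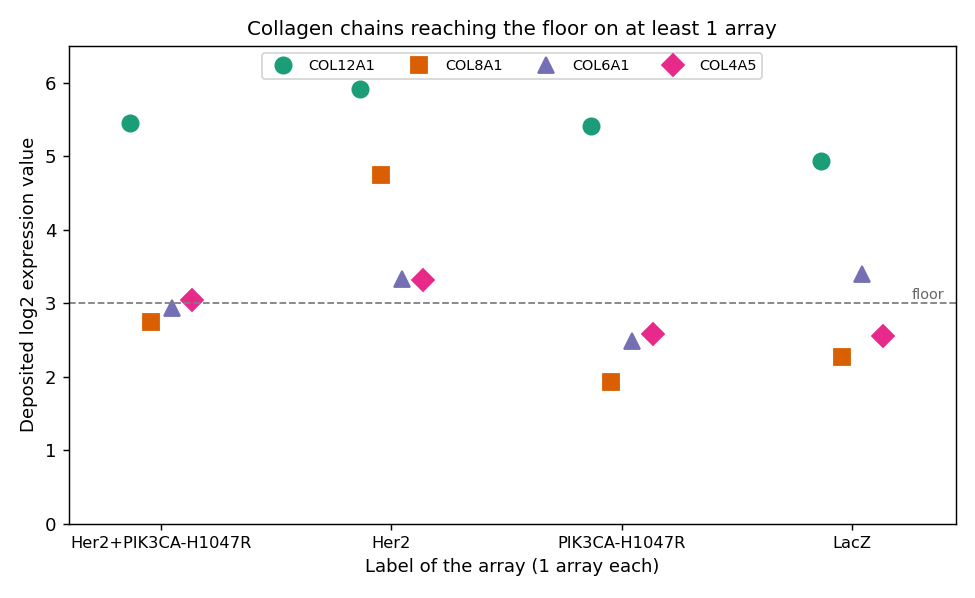
Deposited log2 expression values (vertical axis) of the 4 collagen chains that reached the floor of log2 3 (dashed line), on 1 array per label (horizontal axis; points are shifted sideways so that none hides another). COL12A1 lies above the floor on all 4 arrays, from 4.94 to 5.91, and COL8A1 lies above it only on the Her2-labelled array, at 4.74.

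**Figure D2:**
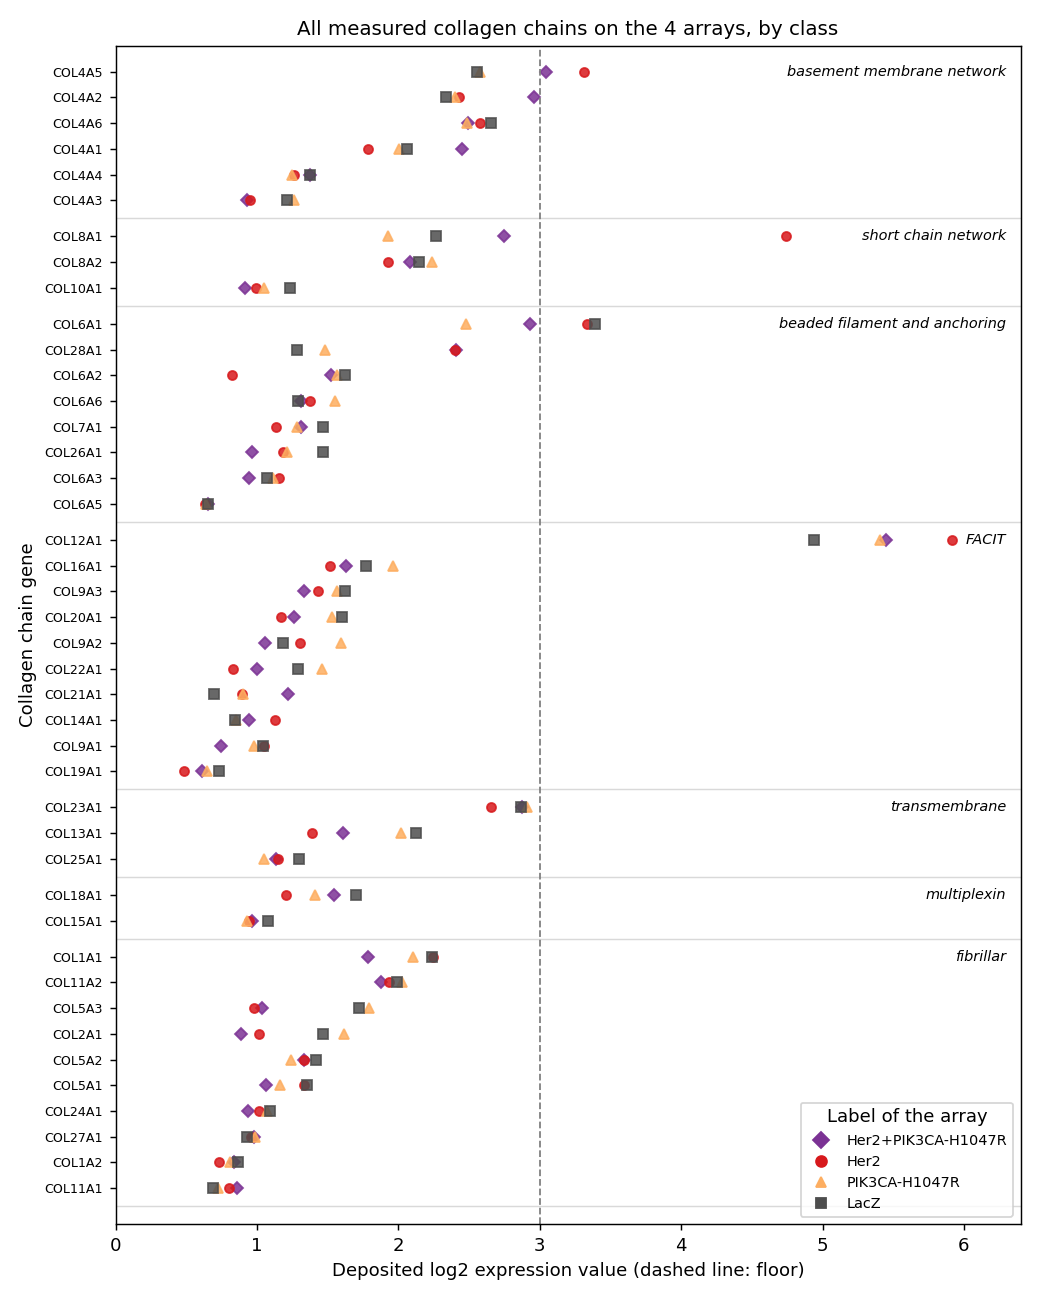
Deposited log2 expression values (horizontal axis) of all 42 measured collagen chains, grouped by class, with 1 point per array and the floor of log2 3 as a dashed line. The 10 fibrillar chains lie at 2.24 or lower on all 4 arrays, and the points right of the line belong to COL4A5, COL8A1, COL6A1 and COL12A1.

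COL8A1 differed most between the arrays. It encodes the alpha1 chain of collagen VIII, a short-chain collagen that forms networks in Descemet's membrane of the eye and beneath vascular endothelium. Its value was 2.75 on the Her2+PIK3CA-H1047R-labelled array, 4.74 on the Her2-labelled array, 1.93 on the PIK3CA-H1047R-labelled array and 2.26 on the LacZ array. Thus it stood high on a single array, the one with the lowest ERBB2 reading, and lay under the floor on the other 3. The Her2-labelled array exceeded the LacZ array by 2.48 log2 units, a 5.58-fold difference. The Her2+PIK3CA-H1047R-labelled array differed from the Her2-labelled array by -2.00, or 4.00-fold. Each of these folds rests on a value under the floor on 1 side. Because both comparisons share the Her2-labelled array, a deviation of that array alone would move both. In the pair without that array, the Her2+PIK3CA-H1047R-labelled array was higher than the PIK3CA-H1047R-labelled array by 0.82, short of 2-fold.

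The partner chain of COL8A1, COL8A2, did not follow this order. COL8A2 read 2.08 on the Her2+PIK3CA-H1047R-labelled array, 1.93 on the Her2-labelled array, 2.24 on the PIK3CA-H1047R-labelled array and 2.15 on the LacZ array. All 4 of these values lay under the floor, and the Her2-labelled array was the lowest. The third gene of the class, COL10A1, a collagen of hypertrophic cartilage, lay between 0.91 and 1.23. The measured coding genes next to COL8A1 on its chromosome, 3 on each side in the RefSeq order, were CPOX, ST3GAL6, DCBLD2, CMSS1, FILIP1L and TBC1D23. Between the Her2-labelled array and the LacZ array they differed by 0.03 (ST3GAL6) to 0.54 (CPOX). These neighbours were looked up after the values of COL8A1 were seen.

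COL12A1 was the only chain above the floor on all 4 arrays. It encodes a fibril-associated collagen with interrupted triple helices (FACIT), which binds along the surface of collagen I fibrils. Its value was 5.45 on the Her2+PIK3CA-H1047R-labelled array, 5.91 on the Her2-labelled array, 5.41 on the PIK3CA-H1047R-labelled array and 4.94 on the LacZ array. The LacZ array was the lowest of the 4. The Her2-labelled array exceeded the LacZ array by 0.98, just under 2-fold, and the PIK3CA-H1047R-labelled array exceeded the LacZ array by 0.47. With both labels the difference from the LacZ array was 0.51, lower by 0.93 than the sum of the single-label differences. The other 9 measured FACIT chains lay between 0.48 and 1.96 on all arrays.

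The 250 bases before the COL12A1 start are shown because this chain alone was above the floor throughout (RefSeq, GRCh38.p14, chr6:75206054-75206303, minus strand, read 5′ to 3′ towards the gene, with a match to GGAATG in capitals).
COL12A1 upstream: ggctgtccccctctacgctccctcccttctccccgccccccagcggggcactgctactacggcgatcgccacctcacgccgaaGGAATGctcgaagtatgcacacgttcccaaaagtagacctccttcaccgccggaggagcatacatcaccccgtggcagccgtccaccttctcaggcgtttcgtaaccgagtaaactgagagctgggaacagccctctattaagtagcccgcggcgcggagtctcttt
The TATA box was searched as TATAAA, the site of NF-Y as CCAAT, that of AP-1 factors as TGANTCA and that of TEAD factors as GGAATG, on both strands. GGAATG occurred once here, beginning at position -167 from the start, and the other 3 were not found in this window. GGAATG occurs in 11.9% of the 35116 RefSeq promoter windows of the same length, so the match is common and only describes these letters. Of the chains that reached the floor, COL12A1 and COL4A5 had an entry in the promoter table.

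COL6A1 was above the floor on the Her2-labelled array and on the LacZ array. It encodes the alpha1 chain of collagen VI, which is secreted as a trimer with the products of COL6A2 and, in the classical form, COL6A3. Its value was 2.93 on the Her2+PIK3CA-H1047R-labelled array, 3.33 on the Her2-labelled array, 2.48 on the PIK3CA-H1047R-labelled array and 3.39 on the LacZ array. Both arrays that carry the PIK3CA label were the lower ones. The PIK3CA-H1047R-labelled array differed from the LacZ array by -0.91, and the Her2+PIK3CA-H1047R-labelled array differed from the Her2-labelled array by -0.40. Both differences were under 2-fold. Its partner chains did not reach the floor. COL6A2 read 1.52 on the Her2+PIK3CA-H1047R-labelled array, 0.83 on the Her2-labelled array, 1.57 on the PIK3CA-H1047R-labelled array and 1.62 on the LacZ array. Its low value on the Her2-labelled array had no counterpart in COL6A1. COL6A3 lay between 0.94 and 1.15 on all arrays, COL6A5 between 0.63 and 0.66, and COL6A6 between 1.29 and 1.55.

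In collagen IV, COL4A5 lay just above the floor at its highest and COL4A2 just under it. COL4A5, an X-linked chain that assembles with COL4A3 and COL4A4 or with COL4A6, read 3.05 on the Her2+PIK3CA-H1047R-labelled array, 3.31 on the Her2-labelled array, 2.58 on the PIK3CA-H1047R-labelled array and 2.55 on the LacZ array. Both arrays that carry the Her2 label were above the floor and both without it were under. The Her2-labelled array exceeded the LacZ array by 0.76, and the Her2+PIK3CA-H1047R-labelled array exceeded the PIK3CA-H1047R-labelled array by 0.47. COL4A6, which lies head to head with COL4A5, read 2.49 on the Her2+PIK3CA-H1047R-labelled array, 2.58 on the Her2-labelled array, 2.48 on the PIK3CA-H1047R-labelled array and 2.65 on the LacZ array. It spanned 0.17 log2 units over the 4 arrays, against 0.76 for COL4A5.

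COL4A1 and COL4A2, whose products form the classical trimer of nearly all basement membranes, were both highest on the Her2+PIK3CA-H1047R-labelled array. COL4A2 read 2.96 on that array, 2.43 on the Her2-labelled array, 2.40 on the PIK3CA-H1047R-labelled array and 2.33 on the LacZ array. COL4A1 read 2.45 on the Her2+PIK3CA-H1047R-labelled array, 1.79 on the Her2-labelled array, 2.00 on the PIK3CA-H1047R-labelled array and 2.06 on the LacZ array. The Her2+PIK3CA-H1047R-labelled array exceeded the LacZ array by 0.63 for COL4A2 and by 0.39 for COL4A1. These differences were under 2-fold, and both genes were under the floor on all arrays. COL4A3 and COL4A4, the chains of kidney glomerular and inner ear basement membranes, lay between 0.93 and 1.38.

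Both gene pairs start back to back, so the sequence between their starts is shown beside the values. The interval between the starts of COL4A1 (to its left, minus strand) and COL4A2 (to its right, plus strand) spans 126 bases (RefSeq, GRCh38.p14, chr13:110307158-110307283, plus strand, with a match to CCAAT in capitals). For COL4A5 the 250 bases before its start are shown (chrX:108439588-108439837, plus strand). Capitals there mark the 121 bases that the 250 bases before the nearer of 2 COL4A6 starts also cover.
COL4A1 to COL4A2 interval: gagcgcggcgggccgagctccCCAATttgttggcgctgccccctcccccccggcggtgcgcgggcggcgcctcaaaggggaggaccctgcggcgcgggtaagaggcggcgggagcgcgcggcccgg
COL4A5 upstream: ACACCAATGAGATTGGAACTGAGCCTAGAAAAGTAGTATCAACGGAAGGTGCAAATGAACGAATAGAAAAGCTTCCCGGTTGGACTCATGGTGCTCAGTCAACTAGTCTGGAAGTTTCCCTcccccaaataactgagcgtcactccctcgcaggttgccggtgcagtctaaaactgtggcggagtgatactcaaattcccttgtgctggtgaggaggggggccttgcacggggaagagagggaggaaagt
The COL4A1 to COL4A2 interval is 80.2% G or C, against 51.2% for the COL4A5 region. CCAAT, on either strand, occurs in 32.0% of the 35116 promoter windows. It occurred once in the 250 bases before each of COL4A1 and COL4A2, which is the same match, and at 2 places before COL4A5, both within the shared stretch. The letters of the TATA box, AP-1 and TEAD searches were not found in the 250 bases before any of COL4A1, COL4A2, COL4A5 and the nearer COL4A6 start. COL4A1 and COL4A2 were highest on the same array, whereas COL4A5 was highest on the Her2-labelled array and COL4A6, whose nearer start lies 379 bases away, on the LacZ array.

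The fibrillar class held no chain at the floor. Its 10 measured chains, the collagens I, II, V, XI, XXIV and XXVII, lay between 0.69 and 2.24 on the 4 arrays. COL1A1, which encodes the main chain of collagen I, read 1.79 on the Her2+PIK3CA-H1047R-labelled array, 2.24 on the Her2-labelled array, 2.10 on the PIK3CA-H1047R-labelled array and 2.24 on the LacZ array. COL1A2, which encodes its partner, lay between 0.73 and 0.87. Neither differed 2-fold between any of the pairs compared. COL11A2 was the only chain with several probe sets, 7 in all with 5 distinct rows of values, and these lay between 1.80 and 2.03. No chain of the transmembrane and multiplexin classes reached the floor. COL23A1, a transmembrane collagen, read 2.66 on the Her2-labelled array and 2.87 to 2.91 on the other arrays, and COL13A1 and COL25A1 of the same class lay between 1.05 and 2.12. COL18A1 and COL15A1, the multiplexins of basement membrane zones, lay between 0.93 and 1.70. COL7A1, the anchoring fibril collagen of stratified epithelia, lay between 1.14 and 1.47.

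On the Her2-labelled array against the LacZ array, 1 of the 4 chains at the floor, COL8A1, was at least 2-fold higher and 0 were lower, where 6.61% of all 8339 genes at the floor were at least 2-fold different (3.63% higher and 2.97% lower). COL8A1 reached the floor on the Her2-labelled array alone and COL4A5 only on the Her2-labelled and Her2+PIK3CA-H1047R-labelled arrays, so being high there is what brought them among the 4, and the count is no support for a difference of the chains. COL12A1 and COL4A5 were higher as well, short of 2-fold, and COL6A1 differed by -0.06. On the PIK3CA-H1047R-labelled array against the LacZ array, 0 of 4 chains differed 2-fold, where 9.7% of all genes did.

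On the Her2+PIK3CA-H1047R-labelled array against the LacZ array, 0 of 4 chains differed 2-fold, although this pair had the largest share of such genes of the pairs compared, 23.7% (14.1% higher and 9.64% lower). COL12A1, COL8A1 and COL4A5 were higher, by 0.51, 0.48 and 0.49, and COL6A1 differed by -0.46. Against the PIK3CA-H1047R-labelled array, the array with both labels was higher in all 4 chains, by 0.04 for COL12A1 to 0.82 for COL8A1, and 0 of 4 reached 2-fold, where 18.5% of all genes did. Against the Her2-labelled array it was lower in all 4, from -0.26 for COL4A5 to -2.00 for COL8A1. In that pair 1 of 4 chains, COL8A1, was at least 2-fold lower, where 14.7% of all genes were at least 2-fold different and 5.32% lower. COL8A1 was among the 4 through the Her2-labelled array alone, so the floor favours a lower value on the other arrays. COL4A5 was among them through the arrays with the Her2 label, which favours a higher value there than on the PIK3CA-H1047R-labelled array. With 4 chains, each count moves by a large share when 1 chain crosses a threshold, so none of these counts sets the chains apart from other genes.

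**Figure D3:**
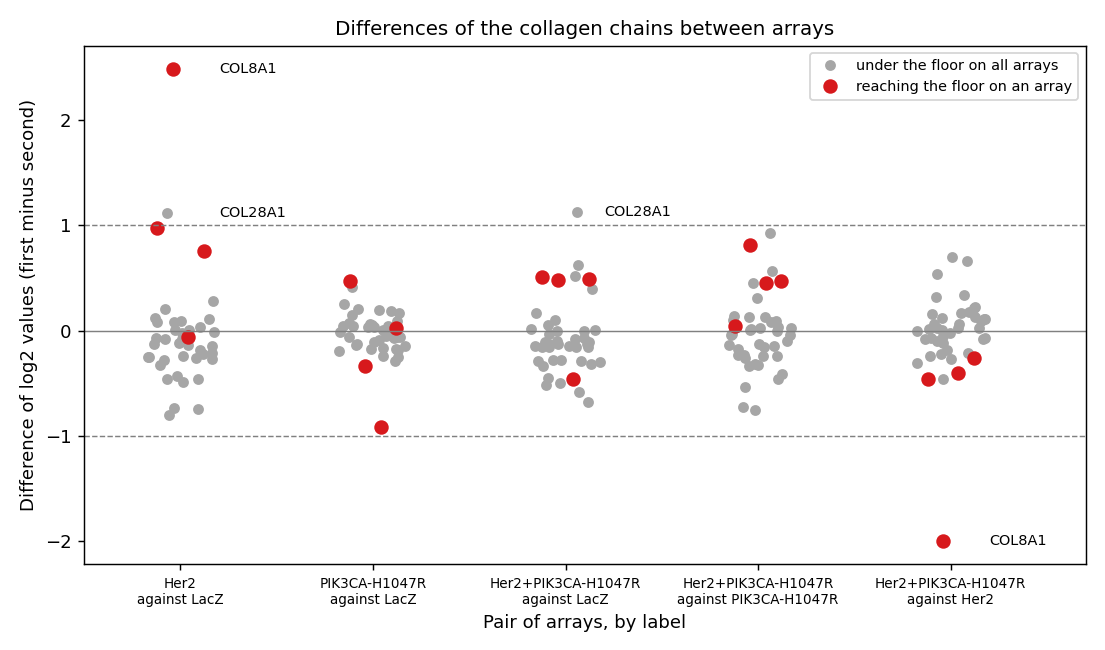
Differences of log2 values (vertical axis, first array minus second) for the 42 measured collagen chains in 5 pairs of arrays (horizontal axis). Red points are the 4 chains that reached the floor, grey points the 38 that did not, and dashed lines mark 2-fold. COL8A1 lies at 2.48 for the Her2-labelled array against LacZ and at -2.00 for both labels against Her2, and COL28A1, under the floor, is the only other chain beyond a line.

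The design gives each label 2 pairs that share no array. For the Her2 label, 0 of 4 chains passed 2-fold in 1 direction in both pairs, where 2.42% of all genes were. COL8A1 (2.48 and 0.82), COL12A1 (0.98 and 0.04) and COL4A5 (0.76 and 0.47) were higher in both. COL8A1 and COL4A5 reached the floor only on arrays with the Her2 label, so the choice of chains favours this direction. For the PIK3CA-H1047R label, 0 of 4 passed 2-fold in 1 direction, higher or lower, in both pairs, where 2.76% of all genes did. COL8A1 (-0.33 and -2.00) and COL6A1 (-0.91 and -0.40) were lower in both. Both chains reached the floor only on arrays without the PIK3CA label, so the choice favours that direction too. Departure from additivity is the value with both labels minus each single-label value plus the LacZ value. It was -1.66 for COL8A1, -0.93 for COL12A1, -0.29 for COL4A5 and 0.51 for COL6A1. Thus 1 of 4 chains, COL8A1, departed by at least 1 log2 unit, where 18.5% of all genes did. COL8A1 was among the 4 through the Her2-labelled array alone, whose value the departure subtracts, so this count is a description.

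Few genes under the floor differed 2-fold, from 141 of 12565 for PIK3CA-H1047R against LacZ to 307 for both labels against LacZ. Of the 38 chains under the floor, 37 likewise differed by less than 2-fold in each of the 5 pairs. The exception, COL28A1, encodes a collagen with von Willebrand factor A domains known from peripheral nerve, and it was picked out after its values were seen. COL28A1 read 2.41 on the Her2+PIK3CA-H1047R-labelled array, 2.40 on the Her2-labelled array, 1.48 on the PIK3CA-H1047R-labelled array and 1.28 on the LacZ array. Both arrays with the Her2 label were the higher ones, by 1.11 against the LacZ array and by 0.92 against the PIK3CA-H1047R-labelled array.

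Other low chains showed the opposite order. For the Her2 label, 17 of the 38 chains under the floor (44.7%) were lower in both pairs and 5 (13.2%) higher in both, where 32.4% of the 12565 genes under the floor were lower and 21.6% higher in both. COL5A3, a minor fibrillar chain, read 1.04 on the Her2+PIK3CA-H1047R-labelled array and 0.98 on the Her2-labelled array, against 1.79 on the PIK3CA-H1047R-labelled array and 1.72 on the LacZ array. COL2A1, the cartilage collagen, read 0.89 and 1.01 on the arrays with the Her2 label, both labels first, against 1.62 on the PIK3CA-H1047R-labelled array and 1.47 on the LacZ array. These chains were also picked after their values were seen. The median of the 38 low chains was 1.18 on the Her2+PIK3CA-H1047R-labelled array and 1.16 on the Her2-labelled array. It was 1.35 on the PIK3CA-H1047R-labelled array and 1.36 on the LacZ array. Over all probe sets the medians were 1.13, 1.16, 1.17 and 1.17 in that order. The low chains thus lay above them mainly on the arrays without the Her2 label. These differences lie in the range where most probe sets of the table read, and the part of probe background in them was not tested.

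The genes that make, process and bind collagen were measured at the same floor, in lists set by known role. Hydroxylation of prolines and lysines in the endoplasmic reticulum stabilises the triple helix and prepares crosslinks. Of 15 genes in that list, 11 reached the floor. On the Her2+PIK3CA-H1047R-labelled array against the LacZ array, 2 of them were at least 2-fold higher and 1 lower, where 14.1% of all genes at the floor were higher and 9.64% lower, so the counts lie near those shares. P4HA1, a catalytic subunit of prolyl 4-hydroxylase, read 7.54 on the Her2+PIK3CA-H1047R-labelled array, 7.14 on the Her2-labelled array, 6.27 on the PIK3CA-H1047R-labelled array and 6.48 on the LacZ array. PLOD2, a lysyl hydroxylase of collagen telopeptides, read 8.89 on the Her2+PIK3CA-H1047R-labelled array, 8.42 on the Her2-labelled array, 7.87 on the PIK3CA-H1047R-labelled array and 7.43 on the LacZ array. For both genes the arrays with the Her2 label were the higher ones. P3H2, a prolyl 3-hydroxylase that acts on collagen IV, read 4.16 on the Her2+PIK3CA-H1047R-labelled array, 7.05 on the Her2-labelled array, 6.45 on the PIK3CA-H1047R-labelled array and 7.06 on the LacZ array. Its difference from the LacZ array was -2.90 with both labels and -0.01 with the Her2 label alone. Against LacZ, 0 of the 11 genes differed 2-fold with the Her2 label, where 6.61% of all genes did, and 0 with the PIK3CA-H1047R label, where 9.7% did, shares at which few or none of 11 genes would be counted.

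Folding and export genes guide procollagen through the secretory pathway. Of 8 in the list, 5 reached the floor, and 1, SERPINH1, was at least 2-fold lower with both labels than on the LacZ array, where 9.64% of all genes were lower. SERPINH1 encodes the collagen chaperone HSP47, and it read 3.79 on the Her2+PIK3CA-H1047R-labelled array, 5.04 on the Her2-labelled array, 4.14 on the PIK3CA-H1047R-labelled array and 5.09 on the LacZ array. Both arrays with the PIK3CA label were the lower ones. MIA3 (TANGO1), which loads procollagen into transport carriers, read 5.74 with both labels, 6.06 with Her2, 6.15 with PIK3CA-H1047R and 5.16 with LacZ, a span under 2-fold.

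Extracellular processing trims procollagen, and crosslinking joins the secreted trimers. Of 13 genes in that list, 6 reached the floor. On the Her2+PIK3CA-H1047R-labelled array against the LacZ array, 4 of these were at least 2-fold higher and 0 lower, where 14.1% of all genes were higher and 9.64% lower. BMP1 and PCOLCE2, 2 of those 4, reached the floor on the Her2+PIK3CA-H1047R-labelled array alone and were counted because they were high there, so the count is no support for a difference of the list. LOXL2, a lysyl oxidase family enzyme that crosslinks collagen IV, read 4.81 on the Her2+PIK3CA-H1047R-labelled array, 3.60 on the Her2-labelled array, 3.10 on the PIK3CA-H1047R-labelled array and 2.72 on the LacZ array. LOX, which crosslinks fibrillar collagens and elastin, read 7.20 on the Her2+PIK3CA-H1047R-labelled array and 7.19 on the Her2-labelled array, against 5.29 on the PIK3CA-H1047R-labelled array and 6.17 on the LacZ array. LOX was thus at least 2-fold higher in both Her2 pairs (1.02 and 1.90). BMP1, a procollagen C-proteinase, differed by 1.54 between both labels and LacZ, and PCOLCE2, an enhancer of that proteinase, by 1.53.

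TLL1, a proteinase of the BMP1 family, was high on the same single array as COL8A1. It read 2.15 on the Her2+PIK3CA-H1047R-labelled array, 4.33 on the Her2-labelled array, 2.21 on the PIK3CA-H1047R-labelled array and 2.43 on the LacZ array. Only the Her2-labelled array was above the floor. TLL1 exceeded the LacZ array there by 1.91 and departed from additivity by -1.97. With LOX, TLL1 made 2 of 6 genes of the list at least 2-fold higher on the Her2-labelled array than on the LacZ array, and 0 were lower, where 3.63% of all genes were higher and 2.97% lower. TLL1 was among the 6 through that array alone, so this count too is a description.

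Collagen receptors differed in opposite ways. Of 8 genes in the receptor list, 6 were measured and 3 reached the floor. ITGA10, a collagen-binding integrin subunit known from cartilage, read 4.52 on the Her2+PIK3CA-H1047R-labelled array, 3.15 on the Her2-labelled array, 2.65 on the PIK3CA-H1047R-labelled array and 2.28 on the LacZ array. ITGA2, the collagen-binding integrin subunit of epithelia and platelets, read 4.92 on the Her2+PIK3CA-H1047R-labelled array, 6.04 on the Her2-labelled array, 7.33 on the PIK3CA-H1047R-labelled array and 5.49 on the LacZ array. The array with both labels was the highest for ITGA10 and the lowest for ITGA2. Their shared partner ITGB1 spanned 4.62 on the LacZ array to 5.40 on the array with both labels.

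Among 7 collagen-cleaving enzymes, 3 reached the floor. MMP2, a gelatinase that cleaves collagen IV and denatured collagen, read 4.53 on the Her2+PIK3CA-H1047R-labelled array, 6.78 on the Her2-labelled array, 2.72 on the PIK3CA-H1047R-labelled array and 3.92 on the LacZ array. Its highest and lowest arrays were the same as those of COL8A1. MMP14, the membrane-bound activator of MMP2, read 3.25 with both labels, 3.42 with Her2, 2.59 with PIK3CA-H1047R and 1.84 with LacZ. MMP1, which cleaves fibrillar collagen, read 7.27 on the PIK3CA-H1047R-labelled array and 0.87 to 2.04 on the other arrays.

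**Figure D4:**
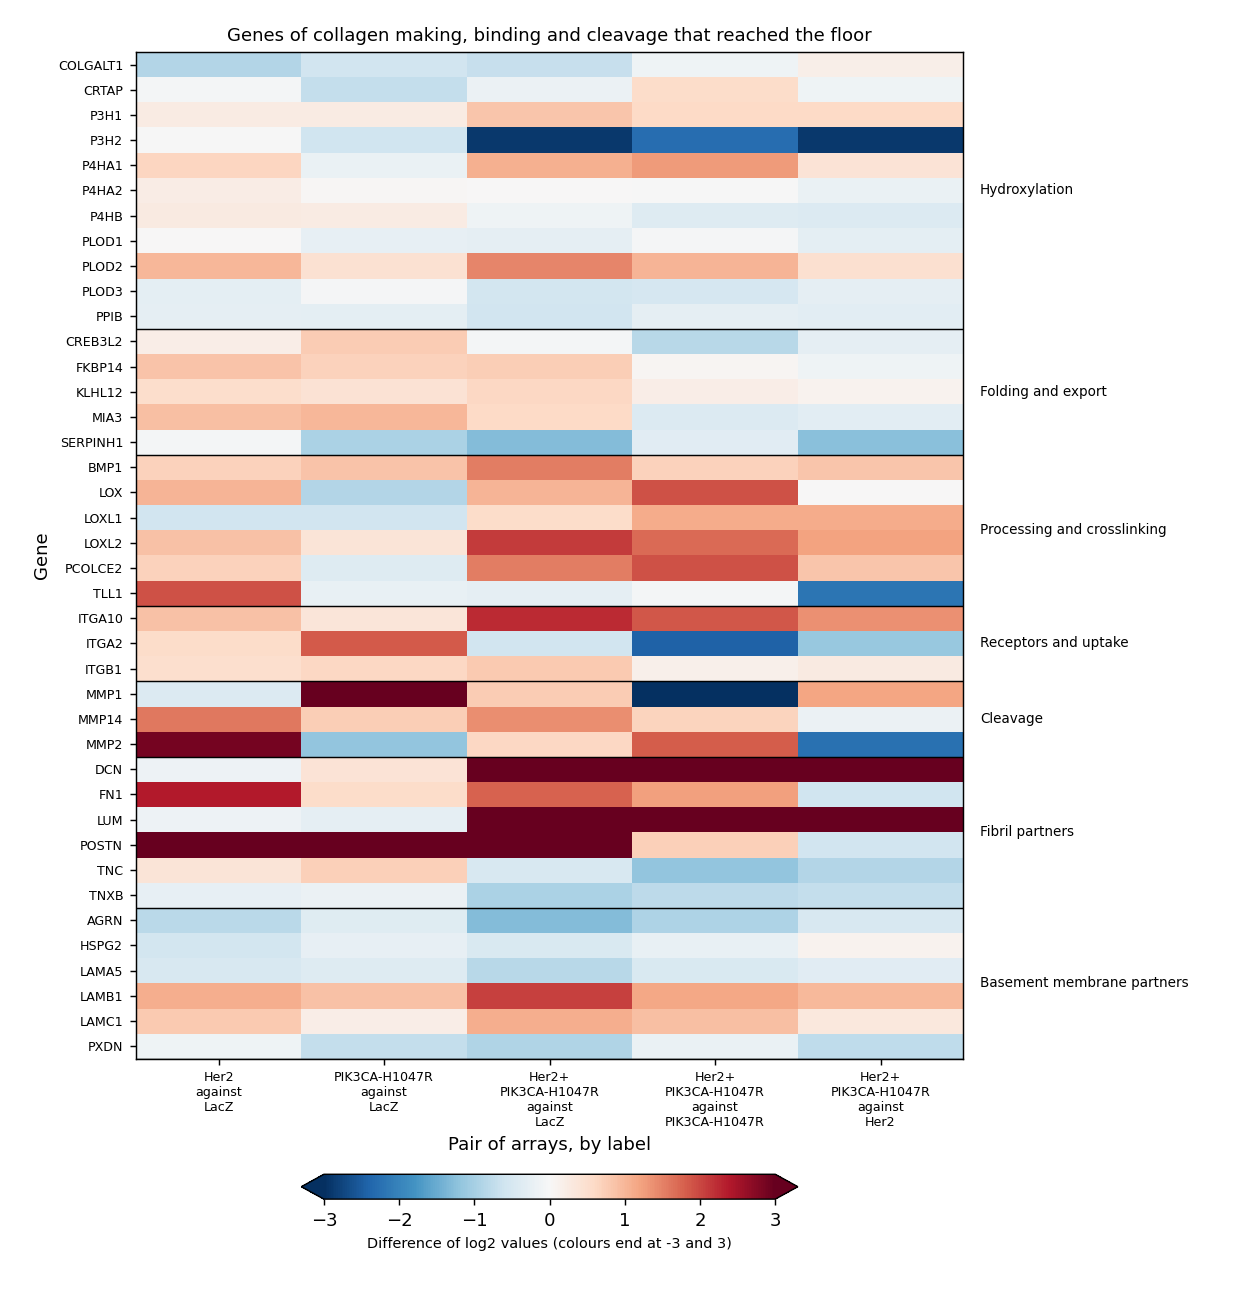
Differences of log2 values (colour, first array minus second, red higher and blue lower, colours ending at -3 and 3) for the 40 list genes that reached the floor, in rows grouped by list, across 5 pairs of arrays in columns. LOXL2, LOX and PCOLCE2 are red where the array with both labels is set against LacZ and against PIK3CA-H1047R, P3H2 is blue wherever the array with both labels is set against another, and TLL1 is red for Her2 against LacZ and blue for both labels against Her2.

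The fibril partners are proteins that bind collagen fibrils or lie beside them. Of 9, 6 reached the floor, and 4 of these were at least 2-fold higher and 0 lower on the Her2+PIK3CA-H1047R-labelled array than on the LacZ array, where 14.1% of all genes were higher and 9.64% lower. DCN and LUM, 2 of the 4, reached the floor on that array alone, so the count is a description. The others, POSTN and FN1, lay above the floor on all 4 arrays and were highest on the Her2-labelled array. POSTN read 8.62 with both labels, 9.19 with Her2, 7.90 with PIK3CA-H1047R and 4.07 with LacZ. FN1 read 10.32 with both labels, 10.91 with Her2, 9.09 with PIK3CA-H1047R and 8.54 with LacZ. LUM (lumican), a proteoglycan that spaces collagen I fibrils, read 6.26 on the Her2+PIK3CA-H1047R-labelled array, 0.63 on the Her2-labelled array, 0.52 on the PIK3CA-H1047R-labelled array and 0.78 on the LacZ array. On the same array COL1A1 read 1.79, its lowest value of the 4. Basement membrane partners were mixed in the same pair. Of 8 in that list, 6 reached the floor, 2 were at least 2-fold higher and 1 lower, beside the same shares over all genes, 14.1% and 9.64%. The laminin chains LAMB1 and LAMC1 differed by 2.05 and 1.09, and AGRN (agrin), a heparan sulphate proteoglycan, by -1.29.

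Fibroblast markers moved with some of these differences. Of 8 markers, 7 were measured, and their summed log2 level was 27.0 on the Her2+PIK3CA-H1047R-labelled array, 18.5 on the Her2-labelled array, 13.7 on the PIK3CA-H1047R-labelled array and 12.6 on the LacZ array. At or above the floor were 4 of the 7 on the Her2+PIK3CA-H1047R-labelled array (FAP, DPT, DCN and LUM) and 2 of the 7 (FAP and DPT) on each of the others. DCN and LUM are fibril partners as well. DPT read 7.86 on the Her2+PIK3CA-H1047R-labelled array, 8.38 on the Her2-labelled array, 3.69 on the PIK3CA-H1047R-labelled array and 3.41 on the LacZ array. FAP read 4.86 on the Her2+PIK3CA-H1047R-labelled array, 5.92 on the Her2-labelled array, 4.71 on the PIK3CA-H1047R-labelled array and 4.34 on the LacZ array. Both were thus highest on the array where COL8A1 was. PDGFRB (0.78 to 1.01), THY1 (1.42 to 2.06) and TCF21 (0.48 to 0.89) stayed under the floor on all 4 arrays, as did COL1A1 and COL1A2, and PDGFRA was not analysed here. The part of other cells in these differences was not tested. In such bulk samples, differing numbers of cells of a type and differing RNA per cell cannot be told apart. Of the other marker lists, 2 of 3 measured endothelial markers (CDH5 and VWF) and 2 of 3 leukocyte markers (PTPRC and CD3E) were under the floor on all arrays. Over all 20904 genes, 39.9% reached the floor on any array, so these counts lie near the general share. KDR read 4.81 with both labels, 3.57 with Her2, 2.03 with PIK3CA-H1047R and 3.83 with LacZ. CD14 read 3.24 with Her2 and 1.98 to 2.95 on the other arrays.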

How the data were processed

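One array per group was measured on RNA of MCF10A cells. Per the submitters' processing notes, the deposited log2 values per probe set were made by the authors with RMA in the oligo package (versions and probe set definition: not given in the sources used here). RMA gives log2 values, and the table spans -0.77 to 12.35. Platform annotation gave exactly 1 symbol for 23871 probe sets, several for 1842, and 27904 had no name here. Gene identifiers were used to update symbols (RefSeq, GRCh38.p14), which matched 22569 and changed 90, and small RNAs were left out. A gene with several probe sets kept the one with the highest mean. Differences of log2 values were computed in Python 3.11.15 (pandas 2.3.3) and tested on simulated data. A gene was counted from a difference of 1 if it reached log2 3 on any array. Alternatives were a floor of 5 or none, quantile normalization or cyclic loess with 3 iterations (limma 3.58.1, R 4.3.3), the mean of all probe sets and a 1.5-fold threshold. With 1 array per group there is no test.

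The members and lists were chosen with earlier results of these data known. Every chain at the floor was named, with the 3 others whose readings came nearest to it. From each list, up to 4 genes with the largest difference in a comparison were to be named. Other chains and genes were named after their values were seen. The lists were hydroxylation, folding and export, processing and crosslinking, receptors and uptake, cleavage, fibril partners, basement membrane partners, and markers of basal and other epithelium, fibroblasts, endothelium and leukocytes. Promoter sequences are from RefSeq, with an entry for 31 of the 42 chains.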

Additional observations from a re-analysis of the deposited data

Results flagged for a closer look

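For 3 chains the difference between arrays with and without a label had opposite signs without and with the other label. These differences were not tested. COL12A1 differed by 0.47 between the PIK3CA-H1047R-labelled array and the LacZ array, and by -0.47 between the Her2+PIK3CA-H1047R-labelled and Her2-labelled arrays. COL4A5 differed by 0.027 and -0.26 in the same 2 pairs. COL6A1 differed by -0.060 between the Her2-labelled array and the LacZ array, and by 0.45 between the Her2+PIK3CA-H1047R-labelled and PIK3CA-H1047R-labelled arrays. All of these differences were under 2-fold, and without replicate arrays their error is unknown. The first differences of COL4A5 and COL6A1, 0.027 and -0.060, were too small to show a direction.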

How the results depend on the processing

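Under quantile normalization and cyclic loess, each of the 8 counts of chains was as reported. Each of the 20 differences of the 4 chains kept its direction and its side of 2-fold. Both settings started from values already processed with RMA. The largest shift of the median difference over genes at the floor was -0.075, for both labels against LacZ, so this check is a weak one. For COL8A1 between the Her2-labelled and LacZ arrays, quantile normalization gave 2.43. The mean of all probe sets could not move these values, because each of the 4 chains has 1 probe set. With a floor of 5, COL12A1 alone remained of the 4 chains. The counts for Her2 against LacZ, for both labels against Her2 and for departure from additivity thus each became 0. Over all genes at that floor the shares were 5.52%, 15.2% and 18.5% in that order. Without a floor, COL28A1 was added, giving 2 of 42 chains for Her2 against LacZ, where 3.53% of all genes were counted. For both labels against LacZ it gave 1 of 42 chains, where 10.9% of all genes were counted. At 1.5-fold, the counts became 3 for Her2 against LacZ, 1 for PIK3CA-H1047R against LacZ and 1 for both labels against PIK3CA-H1047R. They became 1 for both Her2 pairs and 2 for departure from additivity. At that threshold the shares over all genes at the floor were 24.2%, 29.1%, 38.1%, 10.1% and 39.6% in that order. With 4 chains these counts are a description. No paired analysis was possible because each group holds 1 array. No array could be left out without ending a comparison. The part of probe background in values under the floor was not tested.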
